A study of Mus musculus with 16 samples.

Results

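The 8 genes described here are markers of the primed epiblast, of the primitive streak and of neural onset, and they were taken by name from a table of 22552 genes measured in 16 mouse pluripotent cell lines. They are Fgf5, Otx2 and Pou3f1 for the epiblast, Lef1 for Wnt signalling, T and Mixl1 for the primitive streak, and Sox1 and Pax6 for neural onset. Each was present in the table and each passed the filter on low values, a mean of at least 0.5 FPKM over the 16 lines, together with 13185 genes in all. FPKM counts fragments per kilobase of transcript, scaled to the mapped fragments of the library, so levels can be set side by side between genes. Between lines this holds only approximately, since the summed FPKM ran from 661973 in AI3 to 963434 in GS9. Scaling factors from median ratios over genes lay between 0.965 in AI10 and 1.028 in GS9.

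The lines were nuclear transfer embryonic stem cells (ntESCs), called AN, and induced pluripotent stem cells (iPSCs), called AI, both made from adipocyte progenitor cells (APCs) of mice of the strain labelled 129-M2rtTA. The mice came from a single iPSC line carrying the doxycycline-responsive activator M2rtTA at Rosa26, so all 16 lines share that background. AN lines were derived from blastocysts cloned with APC nuclei, and AI lines were obtained by adding doxycycline to APCs. Cloned blastocysts were plated on feeder layers of mouse embryonic fibroblasts, and whether feeder cells were removed before RNA extraction is not given in the sources used here. All lines were kept in medium with serum and leukemia inhibitory factor (LIF). The study tested its newly derived lines by tetraploid complementation, in which the injected cells must form the whole animal. It designated lines as fully pluripotent (F) or partially reprogrammed (P), and took the state of GS4, GS9 and GS32 from earlier work. There were 4 fully pluripotent ntESC lines (AN20, AN15, AN9 and AN1, together AN F) and 5 partially reprogrammed ones (AN7, AN6, AN5, AN3 and AN2, together AN P). Of the iPSC lines, 4 were fully pluripotent (GS32, AI10, AI7 and AI3, together AI F) and 3 partially reprogrammed (GS9, GS4 and AI9, together AI P). F and P were taken from the study's text by line name, and AN or AI from the sample labels. GS4, GS9 and GS32 were lines identified earlier, at passages 17, 6 and 13, whereas the other lines were at passages 5 to 7. The source entries of GS9 and GS32 name GS4, against their titles, and both were kept under their titles. Each line was 1 library, so the spread given below is between lines and every p-value measures that spread. The libraries were of bulk RNA, in which fewer cells expressing a gene and less RNA per cell cannot be told apart.

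Mouse embryonic stem cells in LIF stand for the naive epiblast before implantation. On leaving this state, cells pass through a formative and primed epiblast, in which Fgf5, Otx2 and Pou3f1 are switched on. Wnt and Nodal signals then direct part of the epiblast into the primitive streak, marked by T (Brachyury) and Mixl1, while cells shielded from these signals take a neural fate marked by Sox1 and Pax6. All of these genes are commonly used to detect differentiating cells in pluripotent cultures.

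Markers of pluripotent cells were present in every line. Pou5f1, the core pluripotency factor, was between 615 and 1222 FPKM, Sox2 between 153 and 285, Nanog between 47.7 and 131, Zfp42 between 70.6 and 445, Esrrb between 20.01 and 54.6 and Sall4 between 16.1 and 51.8. Some genes of committed derivatives were at or near 0 in every line, with highest values of 0.159 FPKM for Mesp1 (nascent mesoderm), 0.441 for Tbx6 (paraxial mesoderm), 0.0821 for Neurog2 and 0.0790 for Pax7 (neural progenitors), 0.0417 for Afp and 0.0380 for Ttr (visceral endoderm). Tpbpa, a placental gene, was at 0 throughout. Other lineage genes were well above 0, with Tubb3 at 28.1 FPKM and Olig2 at 5.32 on average, Foxa2 up to 6.504 in AN6, Msgn1 up to 2.68 in AI10 and Krt8 up to 662 in AN6. Relative depth, estimated from the steps between low values, ranged from 0.961 to 1.26 times that of AN1, and the lines correlated with each other at r between 0.929 and 0.978 across genes. No member's level was related to this depth at an adjusted p under 0.05 (8 permutation tests, adjusted p = 0.771 for each).

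In the mm9 build used for the files, T lies on chromosome 17 (chr17:8627288-8635361, plus strand), Mixl1 at chr1:182623174-182627165 on the minus strand, Fgf5 at chr5:98683203-98706049 and Lef1 at chr3:130813389-130927274, both on the plus strand. Otx2 lies at chr14:49277354-49287319 on the minus strand, Pou3f1 at chr4:124334896-124337899 and Pax6 at chr2:105509053-105543317, both on the plus strand. All 7 are annotated as protein coding, and Sox1 was not found by name in the annotation used. Pax6 overlaps Pax6os1 and Elp4, both annotated on the opposite strand, and whether the quantification used strand is not given in the sources used here, so their reads and those of Pax6 may not be separable. Because T and Fgf5 varied together over the lines and Pax6 varied the other way, as described below, the 250 bases before the start site of each are shown, from RefSeq in build GRCm38.p6, 5′ to 3′ on the gene's strand. These are chr17:8434173-8434422 for T, chr5:98253934-98254183 for Fgf5 and chr2:105668646-105668895 for the first of 2 Pax6 windows, all on the plus strand. Capitals mark 1 form of the core of the TCF/LEF motif, CTTTGA or its reverse complement TCAAAG. Other forms of the core were not searched and are left in lower case.
T: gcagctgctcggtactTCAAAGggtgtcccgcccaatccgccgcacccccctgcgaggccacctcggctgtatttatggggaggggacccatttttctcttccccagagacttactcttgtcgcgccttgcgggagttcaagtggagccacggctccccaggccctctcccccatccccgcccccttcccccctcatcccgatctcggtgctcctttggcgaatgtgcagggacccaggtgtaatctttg
Fgf5: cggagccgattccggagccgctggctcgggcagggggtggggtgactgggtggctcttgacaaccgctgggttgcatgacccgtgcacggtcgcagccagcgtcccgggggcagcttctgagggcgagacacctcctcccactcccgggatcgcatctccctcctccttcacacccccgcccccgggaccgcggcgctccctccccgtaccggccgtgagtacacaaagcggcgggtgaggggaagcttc
Pax6: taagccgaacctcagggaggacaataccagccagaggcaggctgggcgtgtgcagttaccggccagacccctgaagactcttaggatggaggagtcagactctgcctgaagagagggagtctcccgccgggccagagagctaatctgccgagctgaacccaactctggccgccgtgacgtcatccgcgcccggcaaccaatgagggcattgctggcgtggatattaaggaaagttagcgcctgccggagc
Of the 8 members, 6 matched 13 such windows, and Pou3f1 and Mixl1 did not match. The T window held 1 TCF/LEF core of this form, starting at -234 relative to the start site, and 1 of the 4 Lef1 windows held 2. In all 2 of the 13 member windows held this form of the core, near the 13.8% of all 32817 windows that did. A T-box motif (AGGTGTGA or TCACACCT) was in none of the 13 windows and in 1.12% of all windows. These matches only describe the letters.

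T had by far the widest range of the members, and Mixl1 the next. Over all lines T spanned 43.9-fold, from 5.85 FPKM in GS4 to 257 in AN6, and its standard deviation of 1.5 in log2(FPKM + 1) was larger than that of 98.8% of the genes tested. Mixl1 spanned 20.9-fold with a standard deviation of 0.73, Fgf5 4.90-fold with 0.60, Pax6 5.33-fold with 0.55 and Otx2 3.13-fold with 0.44. Pou3f1 (0.36), Sox1 (0.36) and Lef1 (0.29) had smaller standard deviations on this scale, which understates the spread of a low gene such as Sox1. By mean level the order was T at 69.0 FPKM ± 68.3 (SD, n = 16), Pou3f1 at 28.0 ± 7.93, Lef1 at 19.5 ± 4.01, Fgf5 at 16.6 ± 6.96, Otx2 at 16.3 ± 6.01, Pax6 at 6.18 ± 2.63, Sox1 at 2.08 ± 0.724 and Mixl1 at 1.54 ± 1.63. The means of T and Pou3f1 differ by less than the standard deviation of T. The means of Lef1, Fgf5 and Otx2 differ by less than their standard deviations, as do those of Sox1 and Mixl1.

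**Figure D1:**
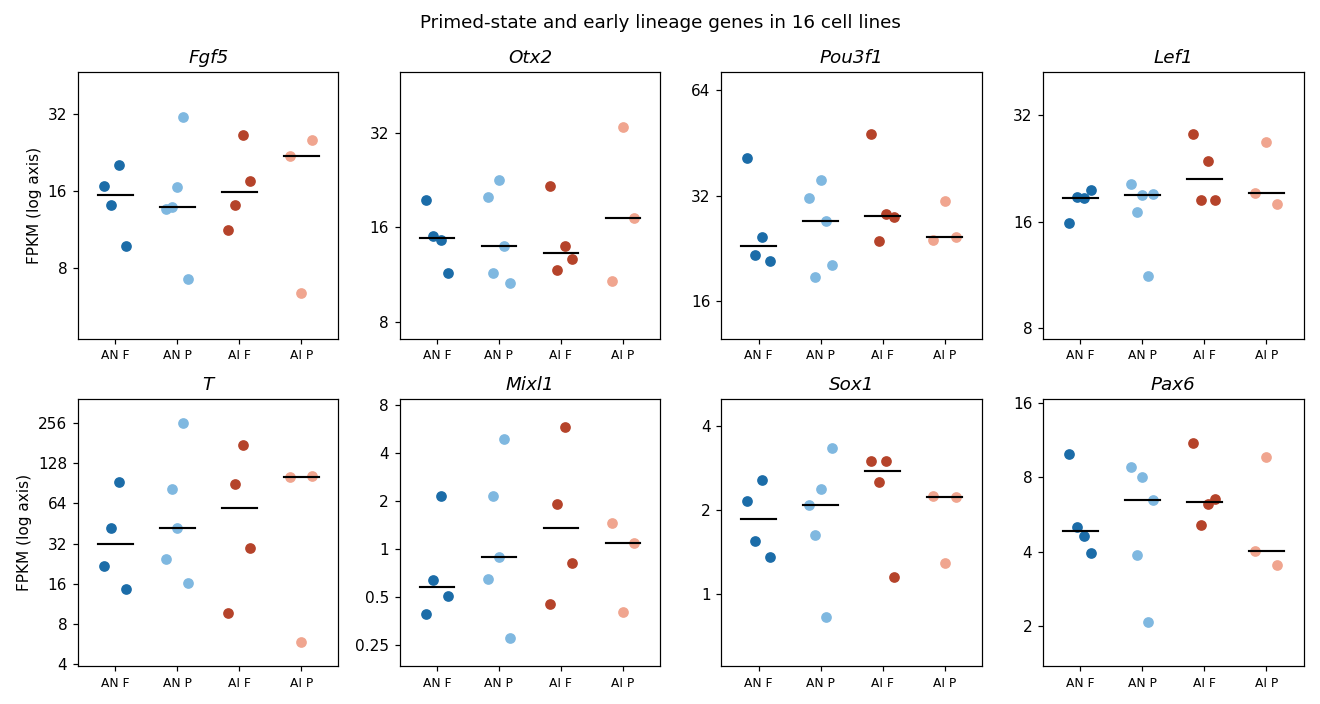
FPKM on a log axis for each member in each line (points), by group, with the group median as a bar. Within every panel the 4 groups overlap, and T spreads from 5.85 to 257 FPKM.

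Fgf5, a growth factor secreted by the primed epiblast, was at 16.7, 14.1, 20.2 and 9.75 FPKM in AN1, AN9, AN15 and AN20, the AN F lines. In AN P it was at 13.6 in AN2, 13.8 in AN3, 16.6 in AN5, 31.1 in AN6 and 7.22 in AN7. AN6 was the highest of all lines, and the AN P lines lay on both sides of the AN F range. In AI F, Fgf5 was at 11.3 in AI3, 14.1 in AI7, 26.5 in AI10 and 17.5 in GS32. In AI P it was at 6.36 in GS4, 25.4 in GS9 and 22.0 in AI9. GS4 was the lowest of the 16 lines while the other AI P lines were among the 4 highest, so the groups overlapped.

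Otx2, a homeobox factor of the epiblast and later of the anterior brain, was at 19.6, 15.0, 14.6 and 11.4 FPKM in AN1, AN9, AN15 and AN20. Among the AN P lines it was at 20.1 in AN2, 11.4 in AN3, 22.6 in AN5, 14.0 in AN6 and 10.6 in AN7. Among the AI F lines it was at 21.6 in AI3, 11.7 in AI7, 13.9 in AI10 and 12.7 in GS32, and in AI P at 33.3 in GS4, 17.1 in GS9 and 10.8 in AI9. The highest value was in GS4, where Fgf5 was lowest, so these epiblast genes did not rank the lines alike.

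Pou3f1 (Oct6), a POU factor of the primed epiblast and early neural tissue, was at 40.9, 21.7, 24.3 and 20.9 FPKM in AN1, AN9, AN15 and AN20. The AN P values were 31.5 in AN2, 18.8 in AN3, 35.4 in AN5, 27.1 in AN6 and 20.3 in AN7. The AI F values were 48.1 in AI3, 23.8 in AI7, 28.3 in AI10 and 27.8 in GS32, and in AI P at 31.0 in GS4, 24.4 in GS9 and 23.9 in AI9. AI3 and AN1, both F lines, were highest, but the other F lines lay within the range of the P lines. The relatives of the epiblast members were unequal in level. Pou3f2 and Pou3f3 reached no more than 0.291 and 0.510 FPKM in any line and Otx1 no more than 0.268, whereas Fgf8 averaged 32.6 FPKM and Fgf4, a growth factor of naive cells, 23.8.

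Lef1, a transcription factor that carries the Wnt signal to its target genes, was at 15.8, 18.8, 18.7 and 19.6 FPKM in AN1, AN9, AN15 and AN20. Levels in AN P were 20.4 in AN2, 17.1 in AN3, 19.0 in AN5, 11.2 in AN6 and 19.1 in AN7. Levels in AI F were 28.2 in AI3, 18.4 in AI7, 23.7 in AI10 and 18.5 in GS32, and in AI P at 26.8 in GS4, 17.9 in GS9 and 19.2 in AI9. AN6 was lowest, and 3 AI lines (AI3, GS4 and AI10) were above every AN line. Of the other factors of the family, Tcf7l1 averaged 48.2 FPKM, Tcf7 21.0 and Tcf7l2 2.62.

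T, the T-box factor that defines the primitive streak, was at 21.8 FPKM in AN1, 41.9 in AN9, 92.5 in AN15 and 14.7 in AN20. In AN P it was at 24.6 in AN2, 82.5 in AN3, 41.9 in AN5, 257 in AN6 and 16.2 in AN7. Both groups held lines under 25 FPKM and lines above 80 FPKM. In AI F it was at 9.64 in AI3, 89.0 in AI7, 174 in AI10 and 29.8 in GS32, and in AI P at 5.85 in GS4, 103 in GS9 and 100 in AI9. The highest and the lowest line were thus both P lines, with the F lines between them.

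Mixl1, a homeobox factor of the streak and mesendoderm, was low in all lines. It was at 0.393 FPKM in AN1, 0.640 in AN9, 2.16 in AN15 and 0.511 in AN20, and in AN P at 0.647 in AN2, 2.15 in AN3, 0.889 in AN5, 4.93 in AN6 and 0.278 in AN7. In AI F it was at 0.456 in AI3, 1.92 in AI7, 5.83 in AI10 and 0.818 in GS32, and in AI P at 0.405 in GS4, 1.10 in GS9 and 1.46 in AI9. AI10 and AN6, the lines with most T, stood above the rest at over 4 FPKM. Eomes, another T-box factor of the streak, ranged from 2.77 FPKM in AI3 to 24.6 in AI10.

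Sox1, an early marker of the neural plate, was at 2.16, 1.55, 2.57 and 1.35 FPKM in AN1, AN9, AN15 and AN20. In AN P it was at 2.08 in AN2, 1.63 in AN3, 2.39 in AN5, 0.8285 in AN6 and 3.33 in AN7. In AI F it was at 2.996 in AI3, 2.51 in AI7, 2.99 in AI10 and 1.15 in GS32, and in AI P at 1.30 in GS4, 2.22 in GS9 and 2.24 in AI9. Over all lines Sox1 spanned 4.02-fold, and both ends of its range lay in AN P. Sox2, which is shared by pluripotent and neural cells, averaged 202 FPKM, and Sox3 10.9 FPKM.

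Pax6, a paired-box factor of the eye and neural tube, was at 9.92, 5.02, 4.64 and 3.94 FPKM in AN1, AN9, AN15 and AN20. In AN P it was at 8.77 in AN2, 3.89 in AN3, 8.01 in AN5, 2.07 in AN6 and 6.45 in AN7. In AI F it was at 11.04 in AI3, 5.12 in AI7, 6.22 in AI10 and 6.54 in GS32, and in AI P at 9.65 in GS4, 3.52 in GS9 and 4.04 in AI9. AI3, AN1 and GS4 were highest and AN6 lowest. Pax3, a relative marking the dorsal neural tube, averaged 0.410 FPKM.

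The first comparison asks whether ntESC lines of full and partial pluripotency differ in these genes. None of the 8 members differed between AN F and AN P by limma with Benjamini-Hochberg adjustment over all genes. Adjusted p-values lay between 0.743 for Mixl1 and 0.998 for Pou3f1, and no gene tested was called (0%). The estimates were smallest for the epiblast genes, at -0.01 in log2(FPKM + 1) for Fgf5 (SE 0.35), -0.02 for Otx2 (SE 0.23) and 0.00 for Pou3f1 (SE 0.24). They were largest for the streak genes, at -0.61 for T (SE 0.80, 95% interval -2.39 to 1.18) and -0.38 for Mixl1 (SE 0.44, interval -1.36 to 0.60). Lef1 was at 0.09 (SE 0.16), Sox1 at -0.03 (SE 0.23) and Pax6 at 0.06 (SE 0.36). Without AN6 the estimate was -0.03 for T and -0.05 for Mixl1, and without AN15 it was -1.09 for T and -0.65 for Mixl1. Of 21 fibroblast markers 19 had estimates below 0 (median -0.24) and 0 passed, while 46.2% of all genes tested had estimates above 0. Their summed level was 1124 to 2009 FPKM in AN F and 1423 to 2742 in AN P. The markers' part in the members' estimates was not tested. The median of the 8 members was -0.02 and that of all genes tested -0.01. At an unadjusted p under 0.05, 0 members and 6.01% of all genes tested were called, and 0 members but 1.3% of all genes had groups that did not overlap. Exact permutation tests, whose smallest possible p was 0.0159 here, gave p between 0.476 and 0.984.

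The second comparison asks the same of the iPSC lines, and again no member differed between AI F and AI P by limma (adjusted p between 0.634 and 0.945, with 0% of all genes called). Here 7 of the 8 estimates were above 0 and Otx2 was below it, at -0.32 (SE 0.37, 95% interval -1.18 to 0.54). The estimate for Mixl1 was 0.48 (SE 0.52), for Pax6 0.35 (SE 0.35), for Pou3f1 0.22 (SE 0.24), for Sox1 0.20 (SE 0.25), for Fgf5 0.09 (SE 0.48) and for Lef1 0.06 (SE 0.20). T was at 0.20 with the widest interval, from -2.73 to 3.13 (SE 1.25). GS4 alone moved it most, since without GS4 the T estimate was -1.10 and that of Fgf5 -0.49. Without AI10 the Mixl1 estimate was 0.03. The members' median was 0.20 against -0.04 for all genes tested. At an unadjusted p under 0.05, 0 members and 7.77% of all genes were called, and 0 members and 4.89% of all genes had groups that did not overlap. The smallest p an exact permutation test allows for 4 against 3 lines is 0.0571, and the members gave 0.400 to 0.914. All 21 fibroblast markers had estimates above 0 (median 0.91), as did 43.7% of all genes tested. By limma 0 of them passed at an adjusted p under 0.05 and 5 at an unadjusted p. Their summed level was 1416 to 2765 FPKM in AI F and 735 to 2375 in AI P. Within AI P, GS4 and GS9 were at 735 and 761, and AI9 at 2375 lay within the AI F range. Their part in the members' estimates was not tested.

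The difference between these comparisons was tested as an interaction. No member's F against P difference was unlike in AI and AN by limma (adjusted p 0.516 for Mixl1, the lowest, to 0.952 for Lef1, with 0% of all genes called). The largest values were 0.86 for Mixl1 (SE 0.71) and 0.80 for T (SE 1.502). At an unadjusted p under 0.05, 0 members and 16.6% of all genes were called. Of the 21 fibroblast markers 20 had interaction values above 0 (median 1.26), as did 45.4% of all genes tested. Without adjustment 15 of them had p under 0.05, and 0 passed after it.

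The third comparison is between derivation methods, which the labels give. Its limma estimates average the F and P groups of each method with equal weight, whereas its exact tests use AN and AI lines as labelled. All 8 members had estimates lower in AN than in AI, with a median of -0.13 against 0.00 for all genes tested, but none passed by limma (adjusted p = 0.999 for each, with 0% of all genes called). Lef1 was nearest, at 17.7 FPKM ± 2.80 (SD, n = 9) in AN and 21.8 ± 4.35 (SD, n = 7) in AI. Its limma estimate was -0.27 (SE 0.13, 95% interval -0.55 to 0.01), and its unadjusted limma p was 0.0561. The exact permutation test of the Lef1 means gave -0.28 with p = 0.0463, the only one of 24 such tests on the members to fall under 0.05. The other estimates lay between -0.06 for T (SE 0.75) and -0.14 for Mixl1 (SE 0.36). T, Fgf5, Otx2, Mixl1 and Pax6 changed sign when single lines were left out. At an unadjusted p under 0.05, 0 members and 3.52% of all genes were called, and 0 members and 0.0228% of all genes had groups that did not overlap.

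**Figure D2:**
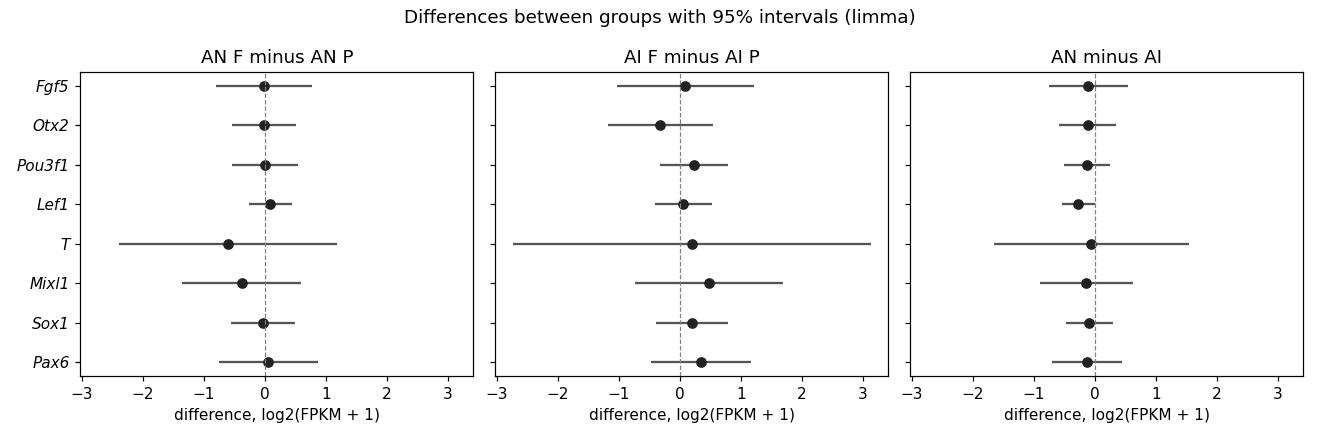
Estimated difference in log2(FPKM + 1) for each member (points) with its 95% interval (lines) from limma, in 3 comparisons on a shared axis. Every interval includes 0, and those of T are the widest.

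Although the groups did not separate, some of the members varied together over the 16 lines. Of 28 pairs, 9 had a Pearson correlation in log2(FPKM + 1) at an adjusted permutation p under 0.05, 7 positive and 2 negative, and 6 pairs passed by Spearman's rho, all among those 9. All 9 had the same sign within the AN lines and within the AI lines. Since the pairs were selected over these same lines, this gives no independent support. The share of all gene pairs that would pass was not computed, so whether the members exceed it was not tested. Negative correlations were common, with 14.2% of all genes at r of -0.5 or less with T, 15% with Fgf5 and 10.5% with Pax6. An r of at least 0.8 with T was found for 2.15% of all genes. The 7 positive pairs formed 2 sets, the streak genes T and Mixl1 with Fgf5, and the neural and epiblast genes Pax6, Pou3f1 and Otx2. Lef1 joined the second set through Pax6 alone. Its r was 0.43 with Otx2 (adjusted permutation p = 0.171) and 0.33 with Pou3f1 (adjusted permutation p = 0.292), and neither pair passed. These r were 0.07 and -0.16 within AN, and 0.74 and 0.83 within AI.

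In the first set, T and Mixl1 were correlated at r = 0.87 (permutation p = 2e-05, the smallest the resampling can give, adjusted p = 0.00056) and rho = 0.89 (permutation p = 2e-05). Within the 9 AN lines r was 0.97 (exact permutation p = 0.000254) and within the 7 AI lines 0.81 (exact permutation p = 0.00397). Without AN6 and GS4, the lines farthest from the median of T, r was 0.86. Fgf5 and T were correlated at r = 0.87 (permutation p = 6e-05, adjusted p = 0.00084) and rho = 0.88 (permutation p = 8e-05), with 0.85 in AN, 0.90 in AI and 0.83 without AN7 and GS4. Fgf5 and Mixl1 gave r = 0.73 (permutation p = 0.00056, adjusted p = 0.00523) and rho = 0.72 (permutation p = 0.00216), with 0.80 in AN, 0.66 in AI and 0.71 without AN7 and GS4. These 3 pairs, and Otx2 with Pou3f1 below, passed under each of the 21 alternatives run.

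In the second set, Otx2 and Pou3f1 were correlated at r = 0.71 (permutation p = 0.00366, adjusted p = 0.0171) and rho = 0.80 (permutation p = 0.00038), with 0.90 in AN, 0.57 in AI and 0.81 without AN5 and GS4. Pou3f1 and Pax6 gave r = 0.71 (permutation p = 0.00186, adjusted p = 0.0104) and rho = 0.70 (permutation p = 0.0036), with 0.60 in AN and 0.86 in AI. For this pair r was 0.53 without AI3 and AN1 and no longer passed over the pairs. Otx2 and Pax6 gave r = 0.64 (permutation p = 0.00646, adjusted p = 0.0226) but rho = 0.55 (permutation p = 0.0283, adjusted p = 0.0990), with 0.63 in AN, 0.68 in AI and 0.56 without AN5 and GS4, where it no longer passed. Lef1 and Pax6 gave r = 0.68 (permutation p = 0.00438, adjusted p = 0.0175) and rho = 0.49 (permutation p = 0.0536), with 0.58 in AN and 0.88 in AI. This relation rested on AI3 and AN6, without which r was 0.31. Leaving out AI3 alone ended the calls of Pax6 with Otx2, Pou3f1 and Lef1, leaving out GS4 alone that of Otx2 with Pax6, and leaving out AN6 alone that of Lef1 with Pax6.

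Between the sets 2 pairs passed, both of them negative, and the others did not pass, among them Fgf5 and Pou3f1 at r = 0.02. T and Pax6 were correlated at r = -0.73 (permutation p = 0.00168, adjusted p = 0.0104) and rho = -0.69 (permutation p = 0.00422), with -0.68 in AN and -0.84 in AI. Without AN6 and GS4 r was -0.58, which did not pass over the pairs. Lef1 and T gave r = -0.59 (permutation p = 0.0142, adjusted p = 0.0441) and rho = -0.49 (permutation p = 0.0582), with -0.72 in AN and -0.66 in AI, but r was only -0.27 without AI3 and AN6. Lef1 and T did not pass in 14 of the 21 alternatives, including 10 in which 1 line was left out (AN9, AN15, AN2, AN3, AN5, AN6, AI3, AI7, GS4 or GS9). Sox1 belonged to neither set, its correlations with the other members lying between -0.08 with Mixl1 and 0.44 with Lef1, none of which passed.

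**Figure D3:**
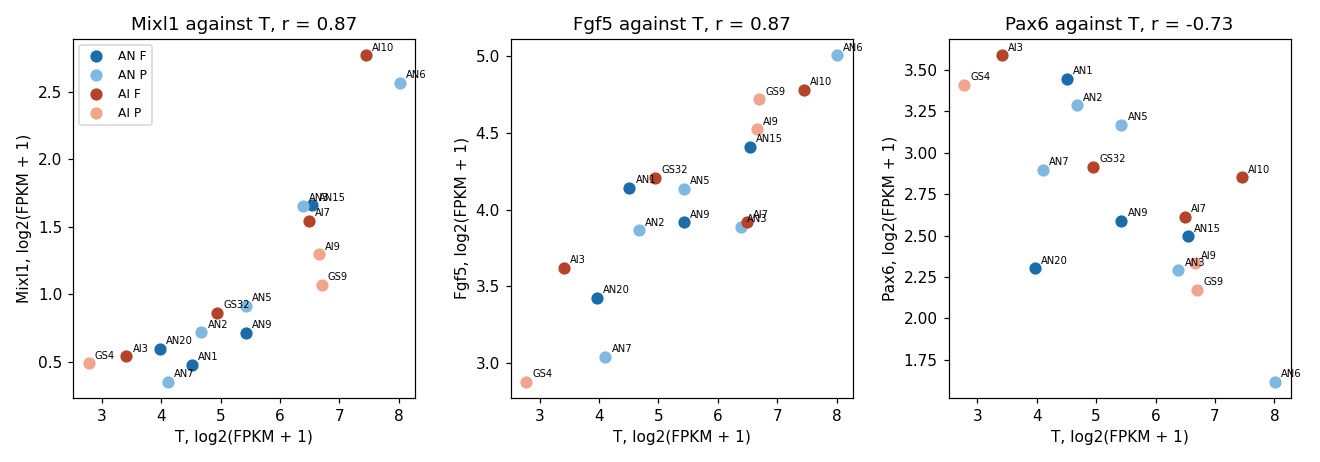
Mixl1, Fgf5 and Pax6 against T in log2(FPKM + 1), 1 point a line, coloured by group. Mixl1 and Fgf5 increase with T and Pax6 decreases, with all 4 groups spread along each trend and AN6 at the far right.

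**Figure D4:**
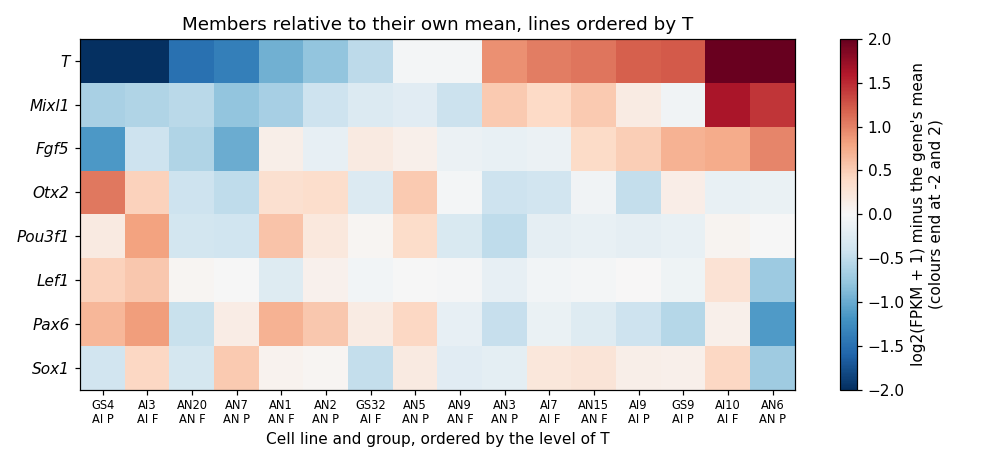
Level of each member in each line as log2(FPKM + 1) minus the gene's mean over 16 lines, with lines ordered from the lowest T (GS4) to the highest (AN6). Mixl1 and Fgf5 follow T, and Pax6 is highest in lines on the left, while F and P lines are interleaved.

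Further genes of the streak and of the Wnt pathway followed T over the lines. Their lists, like the members, were chosen with earlier results of these data known, so they give no independent support. These values describe 16 libraries and carry no test. The gene most like T among all 13184 others was Fgf8, a growth factor needed in the streak, at r = 0.98, from 5.29 FPKM in GS4 to 87.7 in AN6. Alox15 and D0H4S114 were next, both at r = 0.97. Of 15 further streak and mesendoderm genes that passed the filter, 10 had r of at least 0.8 with T, compared with 2.15% of all genes, and their median r was 0.84. Among these were Wnt3 (0.95), the Wnt ligand of the posterior epiblast, Foxa2 (0.95) and Gsc (0.91) of the anterior streak, Wnt8a (0.91) and Eomes (0.88). Hand1, Snai1 and Kdr lay at 0.49 to 0.52, and Gata4 was at -0.16. The summed level of all 20 genes on this list, with those under the filter, was lowest in GS4 at 26.2 FPKM and highest in AN6 at 238. Its range was 46.0 to 143 in AN F, 49.2 to 238 in AN P, 29.2 to 202 in AI F and 26.2 to 132 in AI P, so it overlapped between all groups. No streak gene passed limma in any comparison. In AN F against AN P 13 of 15 estimates were below 0 and 2 above (median -0.27), with 46.2% of all genes above 0. In AI F against AI P 12 of 15 were above 0 (median 0.22), as were 43.7% of all genes. AN6 had the highest mean log2(FPKM + 1) of the 15 (3.16). The other AN P lines lay at 1.605 to 2.488 and AN F at 1.503 to 2.595. GS4 had the lowest (1.198), with AI9 at 2.368, GS9 at 2.117 and AI F at 1.228 to 3.046.

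Several Wnt target genes did the same. Of 12 Wnt targets and TCF factors tested, 3 had r of at least 0.8 with T, namely Sp5 (0.94), Nkd1 (0.89) and Axin2 (0.87), all of them direct Wnt targets, with Sp5 on the streak list too. Axin2 ranged from 3.09 FPKM in AI3 to 15.0 in AI10, and Sp5 from 1.72 in GS4 to 32.6 in AI10. Other targets on the list did not follow T, with Notum at -0.51, Myc at -0.34 and Ccnd1 at -0.05. Lef1 itself was at r = -0.59 with T, and Tcf7l1, a repressor of Wnt targets in naive cells, at -0.33. Ctnnb1, encoding beta-catenin, was between 233 and 272 FPKM. None of the 12 passed limma in any comparison.

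The genes most like Mixl1 were Aplnr (r = 0.99), the apelin receptor of early mesoderm, Rspo3 (0.98), a secreted enhancer of Wnt signalling, and Maml3 (0.98), a Notch coactivator. Aplnr went from 0.0492 FPKM in AI3 to 2.81 in AI10. Those most like Fgf5 were Arrb1, Prom1 and Agpat3, each at 0.93. Otx2 was most like Rbpms2 (0.92), Pou4f1 (0.88) and Anxa11 (0.87), and Pou3f1 most like Rgs20 (0.91), Hdc (0.90) and Zfp609 (0.88).

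Lef1 was most like Pou2f1 (0.89), Pi4ka (0.88) and Ccnt1 (0.87). For Pax6 the nearest genes were Hnrnpl (0.94), a splicing factor, Sall1 (0.93) and Fzd7 (0.93), a Wnt receptor, all lowest in AN6. Sox1 had no close companion, its nearest genes being Mta1, Cacnb3 and Megf6 at 0.72 to 0.73.

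The wider epiblast list was divided. Of 16 primed and formative genes beyond the members, 8 had r of -0.5 or less with T, compared with 14.2% of all genes, and 3 had r of at least 0.8. On the negative side were Dnmt3a (-0.83) and Dnmt3b (-0.55), which methylate DNA anew in the epiblast, Tcf15 (-0.80), Utf1 (-0.78) and Foxd3 (-0.68). On the positive side were Krt18 (0.93), a keratin of simple epithelia, Cer1 (0.85), a secreted Nodal antagonist, and Cdh2 (0.81), encoding N-cadherin, with Nodal at 0.74. Pax6, itself at r = -0.73 with T, largely went the other way, with Foxd3 at 0.92, Zic5 at 0.87, Dnmt3a at 0.85 and Fgf15 at 0.81. Given that r, the values with Pax6 are not independent of those with T. The 2 did not mirror each other for every gene. Sall2 was at 0.71 with Pax6 but -0.23 with T, and Zic2 at 0.56 but -0.12. Of the 15 streak genes, 11 had r of -0.5 or less with Pax6, compared with 10.5% of all genes. None of the 16 epiblast genes passed limma in any comparison, the median estimates being -0.01 in AN F against AN P and 0.06 in AI F against AI P.

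The neural list was mostly low and showed little order with T. Of 20 further neural genes 10 passed the filter, their median r with T was 0.18 and with Pax6 0.19, and none reached 0.8 with either. Nes (38.3 FPKM on average) and Tubb3 (28.1) were the highest, and both are also present outside neural cells, followed by Sox3 (10.9) and Olig2 (5.32). Sox3 gave the lowest unadjusted limma p of this list in AI F against AI P, with an estimate of 0.95 (SE 0.29, adjusted p = 0.521).

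The members were also set against 3 lists of other states. Over 24 permutation tests of the 8 members against the mean of naive genes, fibroblast markers and primitive endoderm markers, none passed. The nearest was Fgf5 with the naive genes, at r = -0.66 (permutation p = 0.0045, adjusted p = 0.108) and rho = -0.66 (permutation p = 0.00618). Its r was -0.31 without AN6 and GS4. Without these lines r with the naive genes went from -0.52 to 0.01 for T and from -0.32 to -0.70 for Pou3f1. For Lef1 it went from 0.45 to -0.55, and over all lines of each method it was 0.97 within AN and -0.05 within AI. T gave r = 0.05 with the fibroblast markers (permutation p = 0.865, adjusted p = 0.986), whose summed level ran from 735 FPKM in GS4 to 2765 in GS32. All 15 naive genes had estimates above 0 in AN F against AN P (median 0.18), as did 46.2% of all genes tested. In AI F against AI P 12 of 15 were below 0 and 3 above (median -0.26), with 43.7% of all genes above 0. AN6 had the lowest mean log2(FPKM + 1) of the 15 (3.711). The other AN P lines lay at 4.502 to 4.666 and AN F at 4.339 to 4.78. GS4 had the highest (5.104), with AI9 at 4.379, GS9 at 4.531 and AI F at 4.067 to 4.63. None of the 15 passed limma, and their part in the members' estimates was not tested. Primitive endoderm markers gave r = 0.49 with Mixl1 (permutation p = 0.0298, adjusted p = 0.289). Of 7 trophoblast markers tested, Eomes (0.88), Cdx2 (0.82) and Hand1 (0.52) are also on the streak list, and Krt8 was at r = 0.96 with T and Krt7 at 0.79, with a list median of 0.79. This list was not tested against the members. Elf5, a defining trophoblast gene, was at no more than 0.0791 FPKM and Tpbpa at 0.

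**Figure D5:**
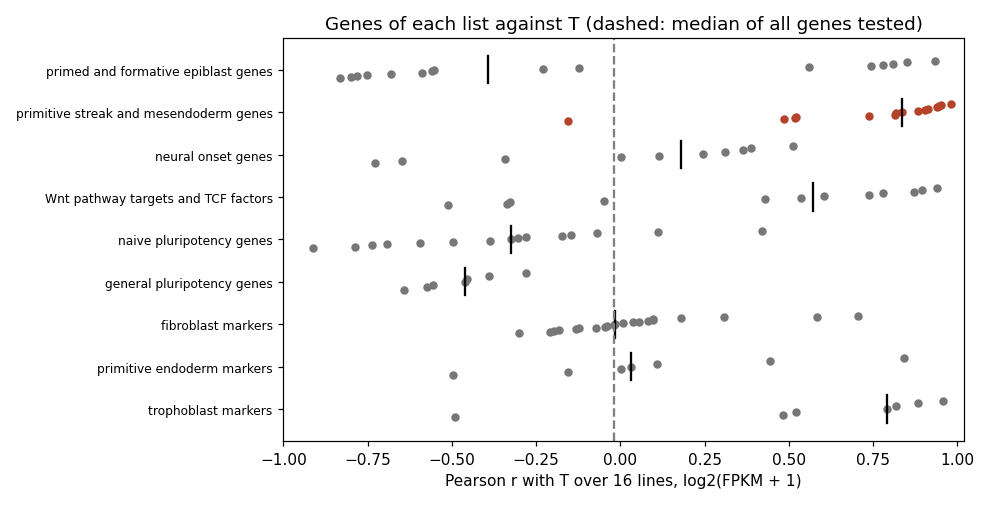
Pearson r with T over 16 lines for each gene (points) of 9 lists, with the list median as a bar and the median of all genes tested, -0.02, as a dashed line. The streak genes cluster on the right with a median of 0.84, and the fibroblast markers lie around 0.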

How the data were processed

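Expression was measured by RNA-seq in 16 mouse lines, 1 library each. Per the study's methods and the submitters' processing notes, the authors mapped 51 bp single-end reads to mm9 with TopHat2 2.1.0 and computed the deposited FPKM values with Cufflinks 2.2.1. HTSeq is named with no role. Strand use is not given in the sources used here, and absolute depth is unknown from FPKM.

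The members and gene lists were chosen with earlier results of these data known. Values were analysed as log2(FPKM + 1) for genes with a mean of at least 0.5 FPKM (13185 of 22552). Differences on this scale understate the change of low genes. Groups were compared with limma 3.58.1 (R 4.3.3, trended variance, Benjamini-Hochberg adjustment over all genes), within AN and within AI separately, and over all lines for AN against AI and for the interaction. In place of the study's Cuffdiff, limma was used because reads were not used here. Single members were compared with two-sided exact permutation tests. Correlations used 100000 permutations, or all orders for groups of 9 and 7 lines, and adjustment over 28 pairs or 24 list relations. Scripts were tested on simulated data.

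Named genes were the members, the 3 genes most correlated with each, named relatives, and, for each of 9 lists (138 entries, 2 matched by an older symbol), the 4 highest by mean FPKM. Further list genes with high or low correlation were named after their values were seen. No value column was left unmapped. Alternatives were another pseudocount, other filters, quantile and median-ratio scaling, no trend, each line left out, passage or line-set terms and newly derived lines alone. Those without GS9 and GS32, and the correlations in newly derived lines, were chosen after seeing the data. Python 3.11.15, scipy 1.17.1 and pandas 2.3.3 were used.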

Additional observations from a re-analysis of the deposited data

Results flagged for a closer look

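Over 24 sets of lines (8 members in AN F, AN P and AI F), no line stood apart from the others of its group by Dixon's ratio, where chance gives about 1.2. No member had a significant interaction between derivation and pluripotency group.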

How the results depend on the processing

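No member passed limma in any comparison under any alternative (0 in each), so the signs below are of differences that never passed. With single lines left out, the AN F against AN P difference ranged over -0.25 to 0.24 for Fgf5, -0.14 to 0.12 for Otx2, -0.21 to 0.11 for Pou3f1, -0.051 to 0.15 for Lef1, -0.20 to 0.11 for Sox1 and -0.20 to 0.22 for Pax6. For AI F against AI P the ranges were -0.49 to 0.43 for Fgf5, -0.68 to 0.086 for Otx2, -0.063 to 0.22 for Lef1 and -1.10 to 0.92 for T. For AN against AI they were -0.40 to 0.064 for Fgf5, -0.30 to 0.083 for Otx2, -0.71 to 0.27 for T, -0.30 to 0.084 for Mixl1 and -0.26 to 0.058 for Pax6. Other settings that turned a sign in AN F against AN P were median-ratio scaling for Fgf5 (0.00073), quantile normalization for Pou3f1 (-0.0087) and a passage term for Fgf5 (0.037) and Otx2 (0.043). A term for previously identified lines gave -0.029 for Fgf5, -0.36 for T and -0.033 for Sox1 in AI F against AI P. In AN against AI, newly derived lines alone gave 0.21 for Otx2 and 0.0059 for Pax6, and leaving out GS9 and GS32, chosen after seeing the data, gave 0.077 for Fgf5 and 0.17 for T. The cause was not tested. The number of correlated pairs was 9, with 10 at a pseudocount of 0.1, 8 under either scaling, 9 in newly derived lines, 4 without the 2 lines farthest from the median, and 5 (without AI3) to 12 (without AI10) with single lines left out. Of 189 alternative values of those 9 pairs, 165 passed and 0 turned sign. Across all genes the interaction gave 651 calls without AI9, no member among them, against 0 with it. No paired analysis was run, because each line was 1 library in 1 group and the labels pair no lines. Groups of 3 to 5 lines leave wide intervals for T and Mixl1.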

Other observations

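Some keratins and a forkhead factor also varied along with T over the 16 lines, given here as descriptions with no test. Krt18 is on the epiblast list above, Krt8 and Krt7 on the trophoblast list and Foxq1 on the primitive endoderm list. The keratins of simple epithelia, Krt8 and Krt18, ran from 17.8 and 11.4 FPKM in GS4 to 662 and 469 in AN6, with r of 0.96 and 0.93 with T, and Krt7 reached 23.1 FPKM in AN6. Foxq1, a forkhead factor, ranged from 0.222 FPKM in AI3 to 5.86 in AN6, at r = 0.84 with T.

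Naive pluripotency genes were unequal in their relation to T. With the mean of the naive list, T gave r = -0.52 (permutation p = 0.0361, adjusted p = 0.289), which did not pass. Without AN6 and GS4 that r was 0.01. Fgf4, the growth factor that drives exit from the naive state, was at r = -0.91 with T, from 7.39 FPKM in AN6 to 56.9 in GS4, and Tet2 (-0.79), Nr0b1 (-0.74), Klf5 (-0.69) and Zfp42 (-0.59) were also negative. Nanog, which is present both in naive cells and in the streak, was at 0.42, and Dppa3 at 0.11. Zfp42 was at 445 FPKM in GS4 and at 70.6 in AN6. AN6 was the lowest of the 16 lines for Esrrb, Tbx3, Tcfcp2l1, Prdm14, Nr0b1, Tcl1 and Tet2 too, whereas GS4 was the highest for Esrrb, Tbx3, Prdm14, Nr0b1, Tcl1 and Tet2. Other naive genes went differently. AI3, where T was also low at 9.64 FPKM, was the lowest line for Nanog (47.7 FPKM), Klf2, Klf4, Dppa3 and Nr5a2.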
